A study of Saccharomyces cerevisiae with 14 samples.

Results

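The 35 genes described here are a named list of nuclear genes for the yeast respiratory chain and ATP synthase. They are 9 of complex III (cytochrome bc1), 2 of cytochrome c, 9 of complex IV (cytochrome c oxidase), 12 of complex V (ATP synthase) and 3 NADH dehydrogenases. Complex II and some ATP synthase subunits, such as TIM11, are not among them and are described with related genes further below. All 35 were on the array, each with 1 probe set, among 5449 genes tested. The arrays came from wild-type Saccharomyces cerevisiae of strain YSBN6. Cells grew in a batch fermentor on 20 g/L glucose with 200 mg/L proline as the nitrogen source, at 30 °C and pH 5, and received a pulse of glutamine to 400 mg/L while still growing exponentially. RNA was read at -10 min, during growth on proline, and after the pulse at 3 and 7 min, at 10 and 14 min, at 24 min, and at 56 and 120 min, on 14 Affymetrix Yeast Genome 2.0 arrays. Times -10, 7 and 24 min had 3 arrays each, 1 from each of the experiments BY003, BY008 and BY012, and the other times had 1 array each, from BY008. All cells carried the same genotype and all later arrays followed the pulse. No array of a culture left on proline at the later times was used here, so the effect of glutamine and that of time in culture cannot be told apart.

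Respiring yeast passes electrons from NADH to ubiquinone, from there through complex III to cytochrome c, and from cytochrome c through complex IV to oxygen. Budding yeast has no proton-pumping complex I. Single-subunit NADH dehydrogenases take its place, Ndi1 on the matrix side of the inner membrane and Nde1 and Nde2 on its outer side. Complexes III and IV pump protons, and complex V uses the gradient to make ATP. Several steps have 2 nuclear genes: CYC1 and CYC7 encode the major and minor forms of cytochrome c, and COX5A and COX5B encode alternative forms of subunit 5 of complex IV, of which the B form is known for low oxygen. On glucose, transcription of many of these genes is held down, and the Hap2, Hap3, Hap4 and Hap5 activator, Hap1 and the repressor Rox1 are among their known regulators.

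The values are log2 of the deposited intensity. Array medians over the 5449 genes lay between 10.79 and 11.19, and the highest log2 value of any probe set was 15.14. Over all genes the median change was -0.33 at 7 min and -0.33 at 24 min against -10 min, and -0.01 at 24 min against 7 min. Subtracting each array's median moved these to -0.14, -0.05 and 0.07. A change is therefore set beside the all-gene median below, and counts are also given with array medians subtracted. In bulk RNA, fewer cells with a transcript and less of it per cell cannot be told apart. Adjusted p values come from limma with Benjamini-Hochberg adjustment over all 5449 genes, a gene is called under 0.05, and errors beside changes are standard errors from that fit.

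On proline the genes gave strong signals. Mean log2 values at -10 min ran from 11.01 for CYC1 to 14.20 for ATP1, with a median of 13.11 against 11.11 for all genes, and 33 of the 35 lay above the all-gene median. All members of complexes III, IV and V did so. Probe sets differ in brightness, so these levels describe signals and give no order of transcript abundance between genes. Spread between the 3 proline arrays was smallest for ATP1 (SD 0.07) and largest for NDE2 (SD 1.91). The array of BY008 was the lowest of the 3 for 30, 29 and 29 of the 35 genes at -10, 7 and 24 min, and that of BY012 was the highest for 27 of 35 at -10 min.

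At 24 min after glutamine 27 of the 35 genes were called lower, most of them modestly, and a few departed far from the rest. The 24 min share was near that of all genes with array medians subtracted and without BY003. At 7 min 15 of 35 fell and 1 rose, where 35.7% of all genes tested fell and 16.7% rose. Of the falls 7 were in complex IV, 4 in complex V, 2 in complex III, 1 in cytochrome c and 1 among the NADH dehydrogenases, and the single rise was CYC1. Their median change was -0.44 against -0.33 for all genes, and 23 of 35 lay below the all-gene median. At 7 min the share that fell was thus near the background.

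At 24 min 27 of 35 fell and 1 rose, where 44.9% of all genes fell and 24.1% rose. The median was -0.57 against -0.33 for all genes, and 28 of 35 lay below the all-gene median. Complex III had 8 of 9 lower and a median of -0.69, complex IV 8 of 9 and -0.67, and complex V 8 of 12 and -0.38. Without BY003 these were 3, 5 and 2, without BY008 8, 8 and 4, and without BY012 5, 5 and 4. The arrays of the 2 times did not overlap for 28 genes that were lower and 1 that was higher at 24 min, where 47.2% and 26.0% of all genes did so. At 7 min 20 were lower and 1 was higher without overlap, where 44.2% and 19.5% of all genes did so.

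With array medians subtracted the counts were smaller. At 7 min 6 fell and 2 rose, where 24.2% and 21.3% of all genes did so, and at 24 min 12 fell and 2 rose, where 35.6% and 31.9% did so, so the shares that fell were at or below the background. Under this scaling no complex V gene fell at 7 min and 2 did at 24 min. With quantile normalization 15 fell and 1 rose at 7 min, where 25.6% and 20.6% of all genes did so, and 20 fell and 1 rose at 24 min, where 33.0% and 33.1% did so. With the experiment as a block no call was lost, 22 fell and 2 rose at 7 min, where 42.6% and 18.0% of all genes did so, and 29 fell and 1 rose at 24 min, where 47.4% and 25.5% did so. The number of calls also varied with the experiments left in the main fit, which does not pair arrays by experiment, among all genes too. The median change of the 35 genes was negative in each of BY003, BY008 and BY012. It was -0.38, -0.38 and -0.51 at 7 min, and -0.55, -0.57 and -0.66 at 24 min. Without BY003, COX5B and NDI1 were the 2 of 16 calls kept at 7 min, and the genes that fell among all 5449 numbered 838 in place of 1947, or 15.4%, with 9.82% higher. Without BY012, 8 of 16 calls were kept at 7 min. At 24 min 13 of 28 were kept without BY003, and those that fell among all genes numbered 1862 in place of 2444, or 34.2%, with 17.0% higher. The 12 of 35 genes that fell at 24 min without BY003 are near that share. Those 13, namely CYC1, CYC7, QCR9, RIP1, CYT1, COX4, COX5A, COX5B, COX9, COX12, ATP5, ATP16 and NDI1, were also called without BY008 and without BY012.

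**Figure D1:**
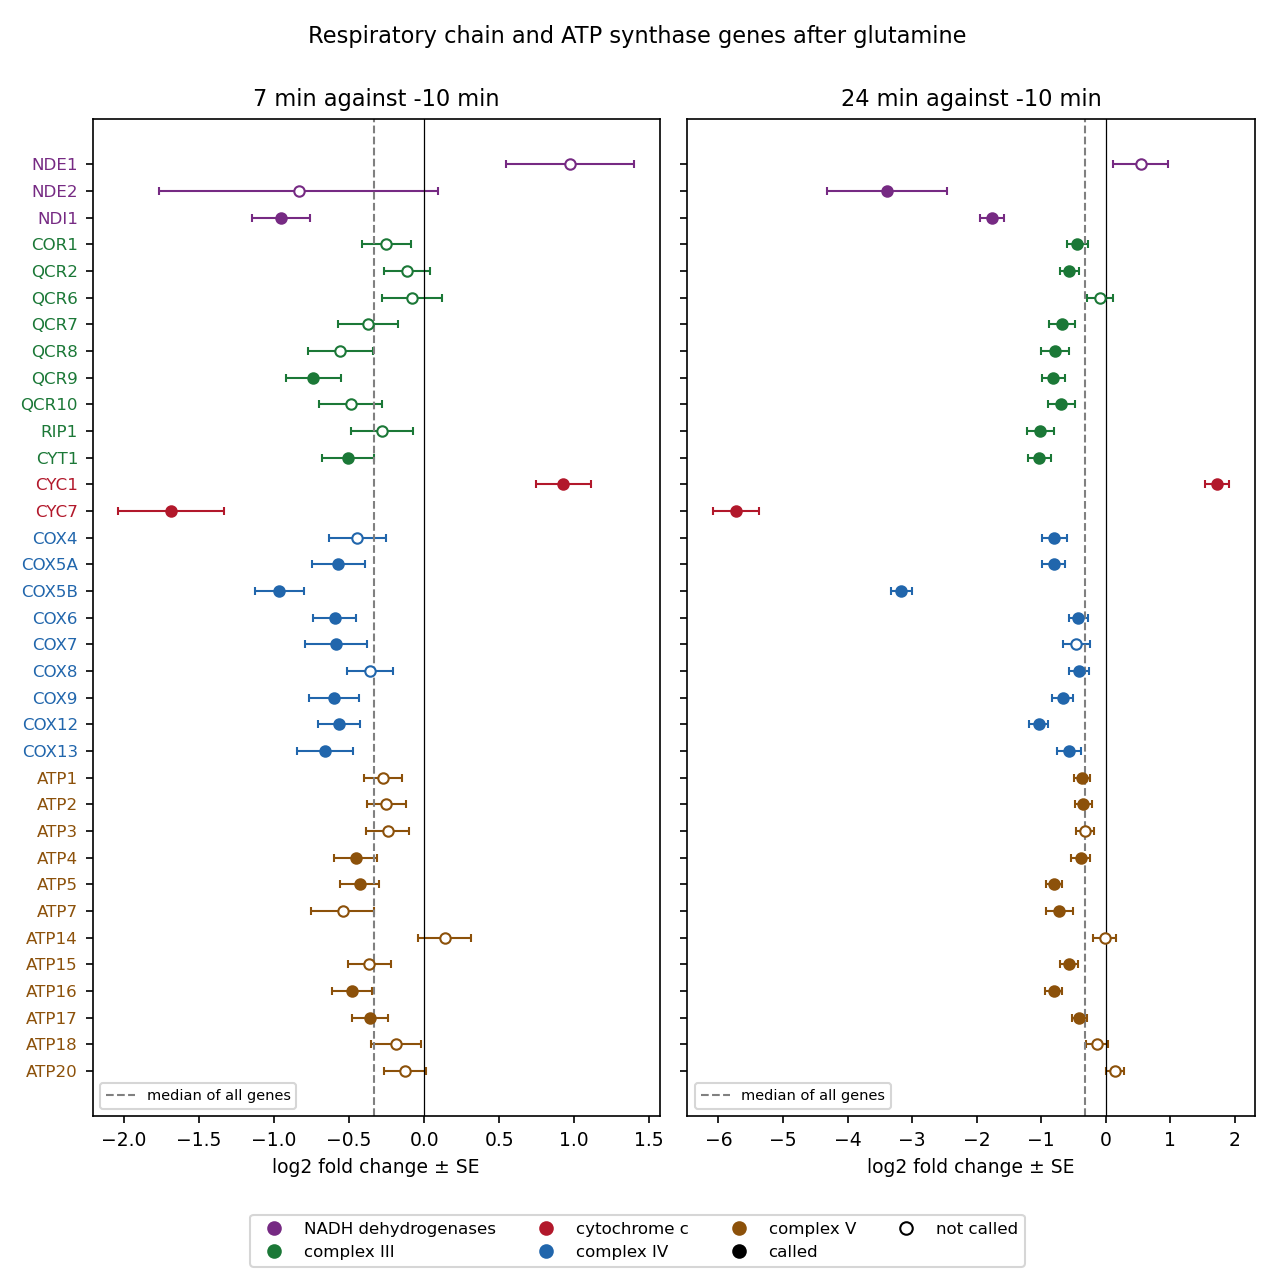
Log2 fold change ± SE of the 35 genes at 7 min (left) and 24 min (right) against -10 min, by complex, with filled points for genes called by limma and open points for those not called, and a dashed line at the median of all genes (-0.33 in both panels). At 24 min 29 genes sat between -1.04 and 0.14, while CYC7 (-5.73), NDE2 (-3.39), COX5B (-3.17), NDI1 (-1.76), CYC1 (1.72) and NDE1 (0.54, not called) lay outside that range.

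The 3 NADH dehydrogenases, which feed electrons into the chain, moved differently from one another. NDI1 (YML120C), the internal enzyme, read 11.28, 11.47 and 11.96 at -10 min, 10.60, 10.67 and 10.57 at 7 min and 10.06, 9.72 and 9.64 at 24 min in BY003, BY008 and BY012. Its arrays stepped down at both times with no overlap between times. It fell by 0.96 ± 0.19 at 7 min (limma adjusted p = 0.0030) and fell by 1.76 ± 0.19 at 24 min (limma adjusted p = 4.0e-05), a fold of 3.39, and both calls held without each experiment in turn.

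NDE2 (YDL085W), an external enzyme, varied most between experiments. It read 10.42, 9.56 and 13.22 at -10 min, 10.15, 8.88 and 11.67 at 7 min and 7.72, 7.04 and 8.26 at 24 min. The BY012 arrays were far above the other two at -10 and 7 min, and the 24 min arrays lay below all arrays of both earlier times. NDE2 fell by 3.39 ± 0.93 at 24 min (limma adjusted p = 0.0092), with changes of -2.70, -2.52 and -4.96 in BY003, BY008 and BY012. Without BY003 that adjusted p was 0.057, and without the -10 min array of BY012 the change was -2.32 (adjusted p = 0.025). At 7 min its change was -0.84 ± 0.93 (adjusted p = 0.46).

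NDE1 (YMR145C), the other external enzyme, was not called. It read 12.56, 11.54 and 13.33 at -10 min, 13.54, 12.82 and 13.98 at 7 min and 13.18, 13.05 and 12.81 at 24 min, so the arrays of the 3 times overlapped. Its change at 7 min was 0.97 ± 0.43 (limma adjusted p = 0.081), higher in 3 of 3 experiments, and it was called with the experiment as a block (adjusted p = 0.035), with array medians subtracted (adjusted p = 0.040) and without the -10 min array of BY012 (adjusted p = 0.020). At 24 min its change was 0.54 ± 0.43 (adjusted p = 0.28), with BY012 at -0.52 and the other two experiments above 0.

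Within complex III, CYT1 (cytochrome c1), RIP1 (the Rieske iron-sulfur protein) and QCR9, a small subunit, had the largest falls, and QCR6, the hinge protein, stayed closest to its proline level. CYT1 read 11.62, 11.48 and 11.89 at 24 min, against 12.68, 12.48 and 12.91 at -10 min in BY003, BY008 and BY012, with every 24 min array below every -10 min array. It fell by 1.03 ± 0.17 at 24 min (limma adjusted p = 0.00060) and fell by 0.51 ± 0.17 at 7 min (limma adjusted p = 0.034). At 7 min the call was lost with array medians subtracted (adjusted p = 0.16), without BY003 (adjusted p = 0.23) and without BY008 (adjusted p = 0.068).

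RIP1 fell late. It read 11.87, 11.57 and 12.14 at -10 min, 11.64, 11.30 and 11.81 at 7 min and 11.02, 10.55 and 10.96 at 24 min. The 7 min arrays overlapped those on proline and the 24 min arrays lay below both. Its change was -0.28 ± 0.21 at 7 min (limma adjusted p = 0.27), and it fell by 1.02 ± 0.21 at 24 min against -10 min (limma adjusted p = 0.0018).

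QCR9 fell early and stood at a similar level at 24 min. It read 12.71, 12.24 and 12.73 at 7 min, against 13.24, 13.11 and 13.55 at -10 min, and fell by 0.74 ± 0.18 (limma adjusted p = 0.0088). At 24 min it read 12.66, 12.37 and 12.45 and had fallen by 0.81 ± 0.18 (limma adjusted p = 0.0034). Without BY003 the adjusted p at 7 min was 0.067. In BY008, with 1 array per time, QCR9 did not stay level between these times. It differed from its proline array by -0.87, -0.70, -0.34 and -0.74 at 7, 10, 14 and 24 min.

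QCR6 had a change of -0.08 ± 0.20 at 7 min (limma adjusted p = 0.75) and -0.09 ± 0.20 at 24 min (limma adjusted p = 0.70). It was the only complex III gene not called at 24 min. The core proteins COR1 and QCR2 and the small subunits QCR7, QCR8 and QCR10 fell at 24 min, with changes between -0.78 and -0.44. All 5 of these calls were lost with array medians subtracted and without BY003. At 7 min none of the 5 was called, and QCR7, QCR8 and QCR10 were called there with the experiment as a block.

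The cytochrome c genes changed in opposite directions, and CYC7 had the largest change of the 35 at both times. CYC1 (YJR048W), the major form and the only one of the 35 to rise, read 11.15, 11.23 and 10.66 at -10 min, 12.20, 11.83 and 11.79 at 7 min and 12.78, 12.76 and 12.67 at 24 min. Its arrays stepped up at both times without overlap, and the 3 experiments were closest together at 24 min. CYC1 rose by 0.93 ± 0.18 at 7 min (limma adjusted p = 0.0027) and by 1.72 ± 0.18 at 24 min (limma adjusted p = 3.5e-05), a fold of 3.30. Without BY003 the 7 min call was lost (adjusted p = 0.053).

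CYC7 (YEL039C), the minor form, read 11.85, 11.18 and 12.93 at -10 min, 10.24, 10.29 and 10.38 at 7 min and 6.24, 6.27 and 6.28 at 24 min. The experiments differed on proline, with BY012 highest, and gave nearly one value after the pulse. CYC7 fell by 1.69 ± 0.35 at 7 min (limma adjusted p = 0.0037; 0.058 without BY003) and fell by 5.73 ± 0.35 at 24 min (limma adjusted p = 2.4e-06), a fold of 53.0.

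At 24 min the CYC7 signal had reached the upper range of probe sets listed for genes of another organism. Of 1747 probe sets whose listed gene ID is not an S. cerevisiae gene in RefSeq, 7.33%, 7.33% and 5.21% were brighter than CYC7 on the arrays of BY003, BY008 and BY012, and their 95th percentile was 6.53, 6.50 and 6.30. Their median was 4.88, 4.90 and 4.81, so CYC7 lay in their upper tail. Taking their 95th percentile as a level of nonspecific signal, the fall of CYC7 at 24 min ends just under that level, and its size below that level was not measured. NDE2 at 24 min was above this percentile on all 3 arrays.

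In the main fit complex IV had the largest share of early falls. At 7 min 7 of its 9 genes fell, where 35.7% of all genes did so. Its median was -0.58 against -0.33 for all genes. With array medians subtracted 3 fell, where 24.2% of all genes did so. Without BY003 1 fell, where 15.4% did so, and without BY012 3 fell, where 1440 of the 5449 genes did so. These smaller counts were near the shares of all genes. COX5B stood apart. Of the others at 7 min, COX13 (subunit VIa) had the largest change, a fall of 0.66 ± 0.19 (limma adjusted p = 0.016), and COX8 the smallest, -0.36 ± 0.15 (limma adjusted p = 0.074; 0.027 with the experiment as a block). COX4 at -0.44 ± 0.19 (adjusted p = 0.075) was likewise called with the block alone (adjusted p = 0.022).

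COX5B (YIL111W), the form of subunit 5 known for low oxygen, read 13.00, 12.95 and 13.38 at -10 min, 12.12, 12.23 and 12.09 at 7 min and 9.90, 10.17 and 9.76 at 24 min. The 3 times were fully separate, and the largest step came after 7 min. It fell by 0.97 ± 0.16 at 7 min (limma adjusted p = 0.0012) and fell by 3.17 ± 0.16 at 24 min (limma adjusted p = 1.6e-06), a fold of 9.0, and both calls held without each experiment in turn.

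COX5A (YNL052W), the aerobic form, read 13.09, 12.94 and 13.36 at -10 min, 12.66, 12.26 and 12.76 at 7 min and 12.34, 12.18 and 12.46 at 24 min. The arrays of 7 and 24 min overlapped and both lay below those on proline. COX5A fell by 0.57 ± 0.18 at 7 min (limma adjusted p = 0.024) and fell by 0.80 ± 0.18 at 24 min (limma adjusted p = 0.0030). The 7 min call was lost with array medians subtracted (adjusted p = 0.094) and without each experiment in turn (adjusted p = 0.054 to 0.14).

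COX12 (subunit VIb) had the largest fall of complex IV after COX5B at 24 min. It read 12.64, 12.41 and 12.47 at 24 min, against 13.49, 13.40 and 13.75 at -10 min, with no overlap, and fell by 1.04 ± 0.14 (limma adjusted p = 0.00015). COX6 (subunit VI) fell by 0.60 ± 0.14 at 7 min (limma adjusted p = 0.0068) and fell by 0.42 ± 0.14 at 24 min (limma adjusted p = 0.023). Its 24 min call was lost with array medians subtracted and without each experiment in turn. COX7 fell at 7 min and was the one complex IV gene not called at 24 min, at -0.46 ± 0.21 (adjusted p = 0.074; 0.017 with the experiment as a block).

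Complex V changed least. Its median at 7 min was -0.32 and at 24 min -0.38, both close to the -0.33 of all genes. The largest falls at 24 min were ATP16, the delta subunit of the F1 head, and ATP5, the stalk subunit known as OSCP. ATP16 read 12.35, 12.12 and 12.39 at 24 min, against 13.17, 12.93 and 13.19 at -10 min, and fell by 0.81 ± 0.14 (limma adjusted p = 0.00057). ATP5 read 12.58, 12.59 and 12.71 at 24 min, against 13.31, 13.57 and 13.40 at -10 min, and fell by 0.80 ± 0.13 (limma adjusted p = 0.00044). Neither gene's arrays overlapped between these times, and both kept their call with array medians subtracted and without each experiment.

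Other complex V genes with a call at 24 min were ATP1 and ATP2, the alpha and beta subunits that carry the catalytic sites, ATP4 and ATP7, subunits of the stator stalk, ATP15, the epsilon subunit, and ATP17, subunit f of the membrane part. Their changes lay between -0.72 and -0.35, and with array medians subtracted none of these 6 was called. ATP7 had the lowest value of the complex at 7 min, -0.54 ± 0.21 (limma adjusted p = 0.052; 0.0071 with the experiment as a block).

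ATP14 (subunit h), ATP20 (subunit g) and ATP18 did not pass the test at any time. ATP14 read 12.75, 12.30 and 12.68 at 7 min, against 12.62, 12.16 and 12.53 at -10 min, a change of 0.14 ± 0.18 (limma adjusted p = 0.53). ATP20 read 12.98, 12.84 and 13.07 at 24 min, against 12.95, 12.77 and 12.75 at -10 min, a change of 0.14 ± 0.14 (limma adjusted p = 0.38). In both the arrays of the 2 times overlapped. With array medians subtracted ATP20 was called higher at 24 min, at 0.42 (adjusted p = 0.028). ATP3, the gamma subunit, was at -0.32 ± 0.14 at 24 min (adjusted p = 0.070; 0.031 with the experiment as a block).

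The genes with 2 forms were compared as the log2 ratio of one probe set to the other within each array, which removes any shift of a whole array. The ratio of CYC1 to CYC7 was -0.70, 0.05 and -2.27 at -10 min, 1.97, 1.54 and 1.41 at 7 min and 6.55, 6.49 and 6.39 at 24 min. It was higher by 2.61 at 7 min and by 7.45 at 24 min, a fold of 175, in 3 of 3 experiments each time. The ratio of COX5A to COX5B was 0.09, -0.01 and -0.02 at -10 min, 0.55, 0.03 and 0.67 at 7 min and 2.44, 2.01 and 2.70 at 24 min.

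This second ratio was higher by 0.39 at 7 min and by 2.37 at 24 min, a fold of 5.16. That of NDE1 to NDE2 was 2.13, 1.97 and 0.12 at -10 min, 3.39, 3.94 and 2.31 at 7 min and 5.46, 6.01 and 4.56 at 24 min, higher by 1.81 and by 3.93, a fold of 15.3 at 24 min. Each ratio was higher in 3 of 3 experiments at both times. The two-sided exact permutation p was 0.1 in all of these comparisons, which is the smallest that 3 arrays against 3 allow, except for COX5A to COX5B at 7 min (exact p = 0.2), where the arrays of the 2 times overlapped. This permutation test cannot reach 0.05 with 3 arrays against 3, so no conclusion is drawn from its p values. The CYC1 to CYC7 fold at 24 min rests on a CYC7 signal at the nonspecific level. Whether a probe set also read the paired gene was not tested.

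**Figure D2:**
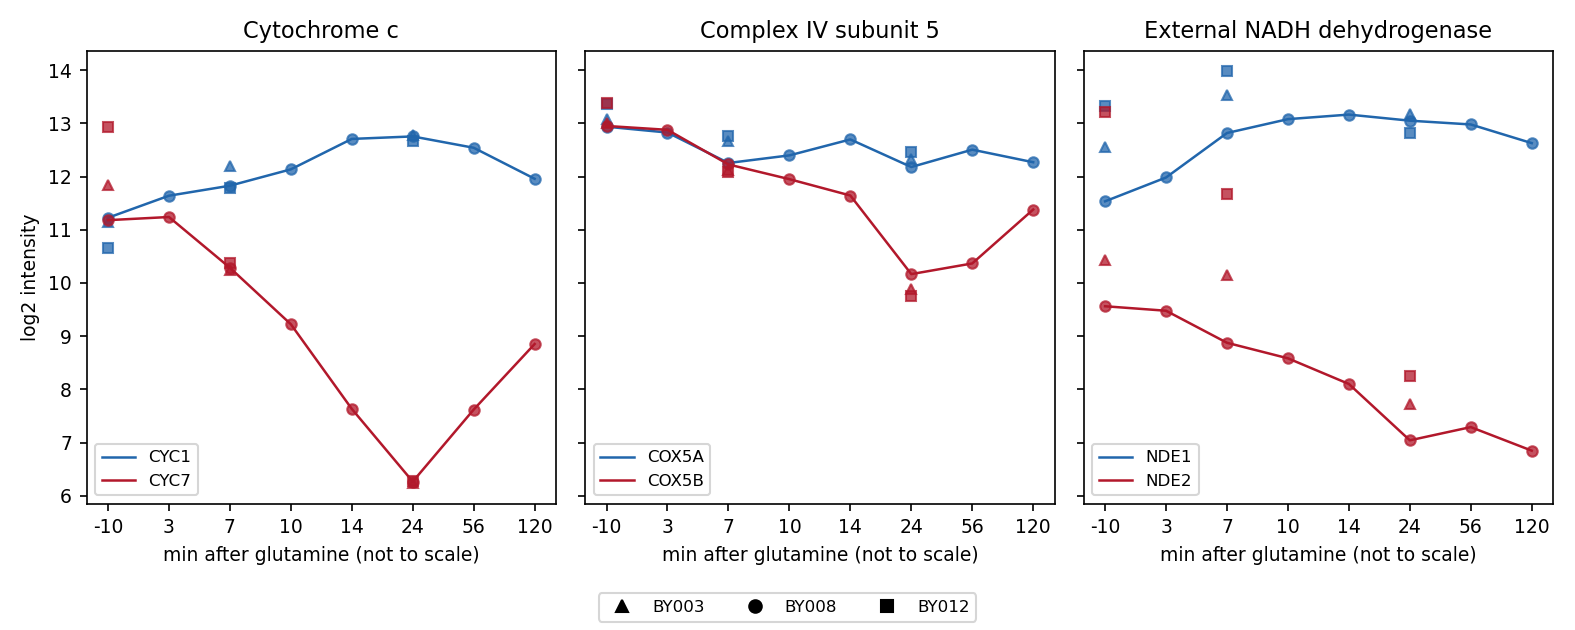
Log2 intensity of the 3 gene pairs over time, with triangles for BY003, circles for BY008 (joined by lines) and squares for BY012, and the time axis not to scale. CYC7 came to 6.24 to 6.28 on the 3 arrays at 24 min while CYC1 stood at 12.67 to 12.78. COX5B parted from COX5A mostly after 7 min. The log2 ratio of COX5A to COX5B was 0.55, 0.03 and 0.67 at 7 min in BY003, BY008 and BY012. At 24 min it was 2.44, 2.01 and 2.70. NDE2 was spread between experiments at -10 and 7 min.

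Between 7 and 24 min 7 of the 35 genes fell further and 1 rose further, where 20.2% and 13.2% of all genes did so. The median was -0.19 against -0.01 for all genes. The arrays of the 2 times did not overlap for 11 genes that were lower and 1 that was higher, where 28.3% and 28.1% of all genes did so. With array medians subtracted 5 fell and 1 rose, where 18.2% and 17.3% of all genes did so, and with quantile normalization 4 and 1, where 14.6% and 18.4% did so. CYC7 fell by 4.04 ± 0.35 (limma adjusted p = 6.7e-05) and COX5B fell by 2.20 ± 0.16 (limma adjusted p = 3.2e-05), and these were the 2 calls kept without BY003, where 5.60% of all genes fell and 1.52% rose. CYC1 rose by 0.80 ± 0.18 (limma adjusted p = 0.010; 0.090 without BY003 and 0.075 without BY008).

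NDI1 fell by 0.81 ± 0.19 over this interval (limma adjusted p = 0.012), and its call was lost without BY003 and without BY008. RIP1 changed by -0.74 ± 0.21 (adjusted p = 0.024), CYT1 by -0.52 ± 0.17 (adjusted p = 0.046), COX12 by -0.47 ± 0.14 (adjusted p = 0.031) and QCR2 by -0.45 ± 0.15 (adjusted p = 0.048). All 4 lost the call without BY003. In complex IV the highest value was that of COX6, 0.17 ± 0.14 (adjusted p = 0.38), and complex V had no call over this interval. ATP5 was at -0.37 ± 0.13 (adjusted p = 0.051) and ATP20 at 0.27 ± 0.14 (adjusted p = 0.16), and NDE2 at -2.56 ± 0.93 had an adjusted p of 0.062. With the experiment as a block ATP5 (adjusted p = 0.0495) and NDE2 (adjusted p = 0.0031) were called as well, which gave 9 lower and 1 higher, where 24.8% and 16.6% of all genes were.

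The full course was measured in BY008 alone, with 1 array per time, so its values carry no test. Against the -10 min array of that experiment the median of the 35 genes was -0.08 at 3 min, -0.38 at 7 min, -0.29 at 10 min, -0.20 at 14 min, -0.57 at 24 min, -0.21 at 56 min and -0.29 at 120 min. The median of all genes on the same arrays was -0.02, -0.31, -0.34, -0.33, -0.28, -0.18 and -0.22, so that of the 35 was above it at 10 and 14 min. The low point at 24 min was flanked by higher values on both sides. Complex III went through -0.28, -0.23, -0.07, -0.72, -0.11 and -0.29 at 7, 10, 14, 24, 56 and 120 min, highest at 14 and 56 min and lowest at 24 min. Against the mean of the 3 proline arrays it stood at -0.42 at 14 min, -0.98 at 24 min and -0.39 at 56 min. Complex IV stood lower at 7 min (-0.65), 24 min (-0.76) and 120 min (-0.60) than at 14 min (-0.31) and 56 min (-0.43). Complex V stayed between -0.14 and -0.39 throughout.

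Single genes had courses of their own in BY008. CYC7 read 11.24, 10.29, 9.22, 7.63, 6.27, 7.62 and 8.85 from 3 to 120 min, lowest at 24 min and partly regained by 120 min, when its difference from the proline array was -2.33. COX5B read 11.95, 11.64, 10.17, 10.37 and 11.38 at 10, 14, 24, 56 and 120 min and followed the same shape. NDE2 did not come back, at 7.04, 7.29 and 6.85 at 24, 56 and 120 min. The last of these lay at the 95th percentile of the probe sets listed for another organism on that array (6.85).

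CYC1 in BY008 read 11.64, 11.83, 12.14, 12.71, 12.76, 12.54 and 11.96 from 3 to 120 min, highest at 14 and 24 min. NDI1 differed from its proline array by -1.75 at 24 min, -0.45 at 56 min and -0.85 at 120 min. RIP1 did so by 0.06 at 14 min and -1.02 at 24 min. The proline array of BY008 was the lowest of the 3 for most of these genes. Set against the mean of the 3 proline arrays instead, the same differences are more negative for most of them, for example -0.50 in place of -0.28 for COR1 at 24 min.

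**Figure D3:**
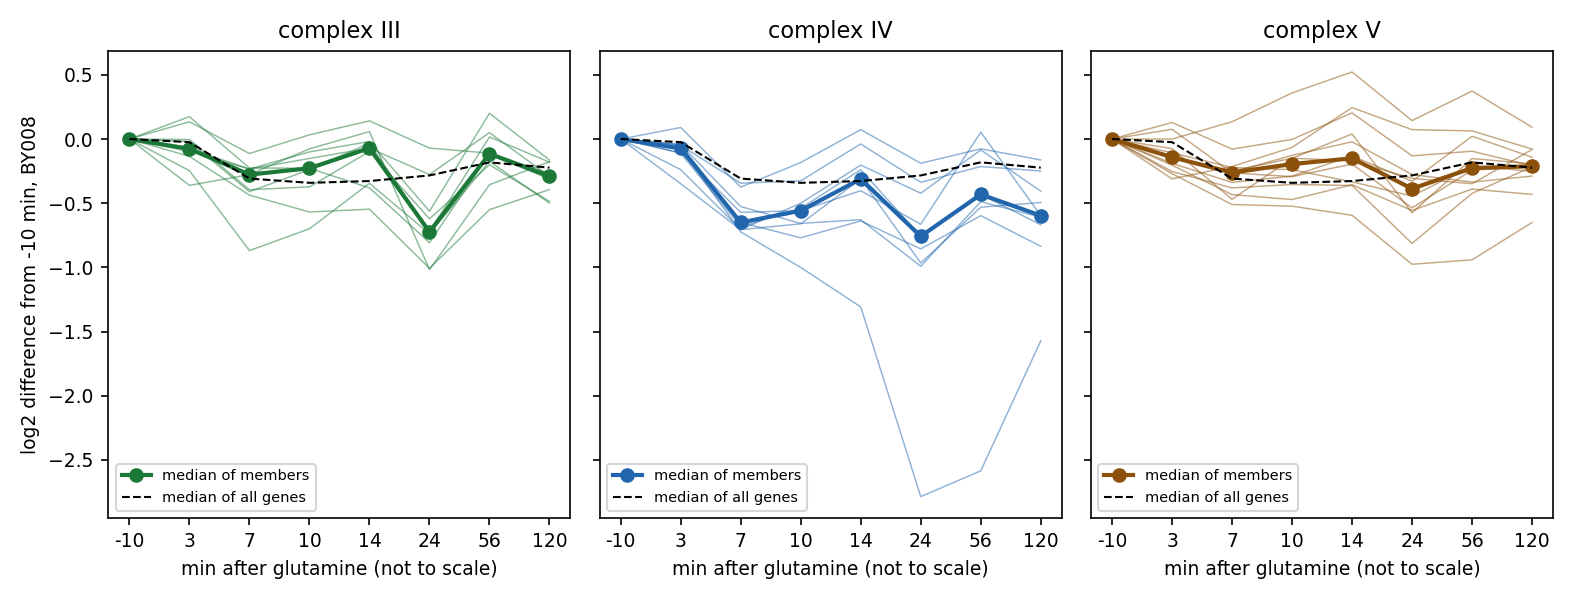
Log2 difference from the -10 min array of BY008 for each gene of complexes III, IV and V (thin lines), their median (thick line with points) and the median of all genes (dashed), 1 array per time, with the time axis not to scale. Medians at 24 min were -0.72 for complex III, -0.76 for complex IV and -0.39 for complex V, and the lowest line in complex IV is COX5B.

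Several groups of genes that work with the chain had larger median changes than its subunits. The counts in these groups are to be read against all genes, of which 35.7% fell and 16.7% rose at 7 min, and 44.9% fell and 24.1% rose at 24 min. The groups were chosen with earlier results of these data known, so their counts are descriptions and no test of a group. Complex II, succinate dehydrogenase, feeds electrons from succinate to ubiquinone. Of its 8 subunit and assembly genes 7 fell at 7 min (median -0.84) and 8 at 24 min (median -2.16), and the assembly factors SDH6 and SDH8 changed by -4.31 ± 0.27 and -2.44 ± 0.22 at 24 min (limma adjusted p = 2.5e-06 and 1.2e-05). Of 10 genes of ubiquinone synthesis 8 fell at 7 min and 9 at 24 min (median -2.34), and CAT5, also called COQ7, and COQ4 changed by -3.87 ± 0.30 and -2.90 ± 0.25 at 24 min (limma adjusted p = 6.7e-06 and 9.9e-06). With array medians subtracted 4 and 8 genes of complex II fell, and 8 and 8 of ubiquinone synthesis. Without BY003 3 genes of each group fell at 7 min, and 7 of complex II and 8 of ubiquinone synthesis at 24 min, and without BY008 4 of complex II fell at 7 min.

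The inhibitor genes of ATP synthase had changes outside the range of its 12 subunit genes above at 24 min. Of 5 further subunit and inhibitor genes 3 fell at 7 min (1 without BY003, 2 without BY012) and 4 at 24 min. STF2, whose product stabilises the inhibited enzyme, read 9.52, 8.71 and 9.27 at 24 min, against 13.81, 13.40 and 14.32 at -10 min, and STF1, an inhibitor, read 9.03, 8.64 and 8.80 against 13.00, 12.63 and 13.52. There was no overlap in either, and they changed by -4.68 ± 0.27 and -4.22 ± 0.22 (limma adjusted p = 2.0e-06 and 1.7e-06). The inhibitor gene INH1 fell by 1.18 and the subunit gene TIM11 fell by 0.77 at 24 min.

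Genes for assembly of the complexes and expression of their mitochondrial subunits gave mixed results. For complex IV 22 of 32 fell and 2 rose at 7 min (median -0.94), and 21 fell and 4 rose at 24 min (median -0.71). SCO1, a copper carrier for this complex, had its full fall by 7 min, at 8.82, 8.77 and 8.67 against 11.11, 11.01 and 11.09 at -10 min, a change of -2.32 ± 0.14 (limma adjusted p = 9.1e-06). The assembly factors COA4 and PET117 changed by -2.27 ± 0.44 and -2.24 ± 0.28 at 7 min (limma adjusted p = 0.0023 and 0.00024). SCO2, the paralogue of SCO1, fell by 1.08 ± 0.30 at 7 min and fell by 2.79 ± 0.30 at 24 min. COX19, a protein of the intermembrane space needed for this assembly, rose by 1.89 ± 0.27 at 7 min and by 1.67 ± 0.27 at 24 min (limma adjusted p = 0.00051 and 0.00050). OXA1, the insertase of the inner membrane, rose by 0.73 ± 0.16 at 24 min. The calls of SCO2 at 7 min (adjusted p = 0.12) and OXA1 (adjusted p = 0.066) were lost without BY003, which left 15 genes lower at 7 min and 1 higher at 24 min. Higher calls at 7 min numbered 1 without any of the 3 experiments, and those at 24 min numbered 2 without BY012.

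As given above, 35.7% of all genes fell and 16.7% rose at 7 min, and 44.9% fell and 24.1% rose at 24 min. For complex III 7 of 12 fell and 1 rose at 7 min, and 5 fell and none rose at 24 min, where the median was -0.13, above that of all genes. With array medians subtracted 2 fell and 1 rose at 24 min and the median was 0.15, so the direction of this group turned with the scaling. Its lower share at 24 min was near that of all genes. Without BY003 4 fell at 7 min and 2 at 24 min, and without BY008 or BY012 3 fell at 24 min. CBP4, an assembly factor, changed by -2.12 ± 0.21 and -4.43 ± 0.21 at 7 and 24 min, while CBP1, which stabilises the cytochrome b transcript, rose by 1.00 ± 0.15 at 7 min (limma adjusted p = 0.00067). For complex V 6 of 12 fell and 1 rose at 7 min, and 8 fell and 1 rose at 24 min (5 lower without BY003, and 5 lower and 3 higher with array medians subtracted). With medians subtracted that count was near the share of all genes. The rise was NCA3, which with NCA2 regulates the mitochondrial ATP6 and ATP8 transcripts. NCA3 rose by 2.47 ± 0.33 and 3.05 ± 0.33, and NCA2 changed by -1.76 ± 0.26 and -3.94 ± 0.26, at 7 and 24 min. The 7 mitochondrially encoded subunit genes were not analysed here.

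Heme is the cofactor of cytochromes. Of 8 genes for its synthesis 2 fell and 2 rose at 7 min, and 5 fell and 2 rose at 24 min, counts not far from the shares of all genes. With array medians subtracted none fell at 7 min, and 3 fell and 3 rose at 24 min. Without BY003 none fell and 1 rose at 7 min, and 3 fell at 24 min, and without BY012 none fell at 7 min. The rises were HEM3 by 1.40 ± 0.16 and HEM1 by 0.84 ± 0.19 at 7 min (limma adjusted p = 0.00015 and 0.0061; 0.089 for HEM1 without BY003). HEM2 and HEM4 changed by -0.36 and -0.43 at 7 min (limma adjusted p = 0.043 and 0.029). They changed by -0.37 and -0.57 at 24 min (limma adjusted p = 0.030 and 0.0052). The largest fall was that of HEM15 (ferrochelatase), which fell by 3.22 ± 0.42 at 24 min (limma adjusted p = 0.00012). Of 7 genes for cytochrome c maturation and its partners 4 fell at 7 min (1 without BY003, 2 without BY012) and 5 at 24 min. Among them CYC3, the lyase that attaches heme to cytochrome c, had a change of 0.02 ± 0.16 at 7 min (adjusted p = 0.94) and fell by 1.63 ± 0.16 at 24 min, and CYB2, the lactate dehydrogenase that hands electrons to cytochrome c, fell by 2.74 ± 0.29 at 24 min.

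Of 9 carriers and other electron donors 1 rose and none fell at 7 min, and 1 rose and 5 fell at 24 min, so no count was far above the share of all genes. Without BY003 none rose and 3 fell at 24 min, with the experiment as a block 2 rose and 5 fell there, and with array medians subtracted 3 rose and 4 fell. GUT2 was called lower at 7 min with the block alone, at -0.63 ± 0.41 (adjusted p = 0.046, against 0.22 without it). The rise at both times was AAC3, a minor ADP/ATP carrier known for low oxygen, at 10.98, 10.83 and 10.65 at 7 min, against 8.24, 8.68 and 7.78 at -10 min, higher by 2.58 ± 0.38 (limma adjusted p = 0.00058). GUT2, the mitochondrial glycerol-3-phosphate dehydrogenase that passes electrons to ubiquinone, fell by 3.63 ± 0.41 at 24 min. Of 2 supercomplex factors on the array RCF1 fell at both times, with a change of -2.13 ± 0.24 at 24 min.

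**Figure D4:**
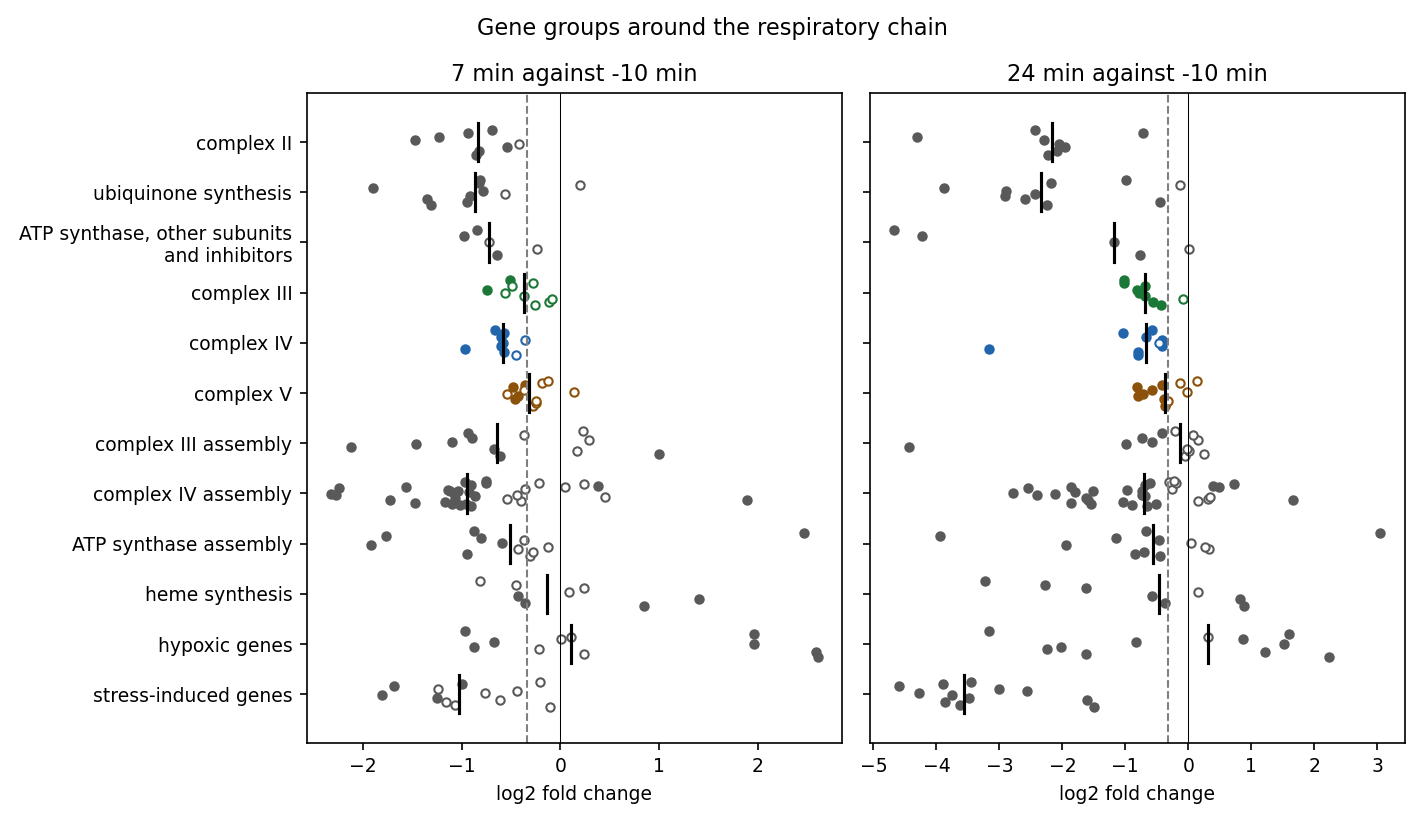
Log2 fold change of each gene (points, filled where limma called it) in gene groups around the chain at 7 min (left) and 24 min (right) against -10 min, with a bar at each group's median and a dashed line at the median of all genes (-0.33). At 24 min the medians of complexes III, IV and V were -0.69, -0.67 and -0.38, and those of complex II (-2.16), ubiquinone synthesis (-2.34) and the stress-induced genes (-3.56) lay furthest below the line.

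Several known regulators of these genes moved within 7 min. HAP4 (YKL109W), the regulated activation subunit of the Hap complex, read 10.62, 9.37 and 11.99 at -10 min, 13.52, 12.91 and 13.91 at 7 min and 11.58, 10.82 and 11.45 at 24 min. All 7 min arrays lay above all others, and those of 24 and -10 min overlapped. HAP4 rose by 2.79 ± 0.56 at 7 min (limma adjusted p = 0.0031) and had a change of 0.62 ± 0.56 at 24 min (limma adjusted p = 0.35). It fell by 2.17 ± 0.56 between 7 and 24 min (adjusted p = 0.017). Without BY003 both calls were lost (adjusted p = 0.056 at 7 min and 0.15 for 24 against 7 min).

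The DNA-binding subunits of the same complex behaved otherwise. HAP2 read 8.75, 8.94 and 8.56 at 7 min, against 10.78, 10.51 and 11.17 at -10 min, and fell by 2.07 ± 0.19 (limma adjusted p = 4.7e-05). HAP5 changed by -1.23 ± 0.15 at 7 min and -0.97 ± 0.15 at 24 min, and HAP3 had a change of 0.26 ± 0.17 and 0.35 ± 0.17 (adjusted p = 0.20 and 0.088), called higher at both times with array medians subtracted. HAP1, the heme-responsive activator, had a change of -0.52 ± 0.25 at 7 min (adjusted p = 0.11; 0.014 with the experiment as a block) and fell by 0.99 ± 0.25 at 24 min (limma adjusted p = 0.0064; 0.076 without BY003).

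ROX1, the repressor of hypoxic genes, read 13.52, 12.94 and 13.93 at 7 min, against 11.79, 10.99 and 11.72 at -10 min. It rose by 1.96 ± 0.30 at 7 min and by 1.53 ± 0.30 at 24 min (limma adjusted p = 0.00074 and 0.0016). Of 11 genes on a list of known Rox1 targets, which holds ROX1, COX5B and AAC3 themselves, 4 rose and 3 fell at 7 min, and 5 rose and 5 fell at 24 min. Among all genes 16.7% rose and 35.7% fell at 7 min, and 24.1% rose and 44.9% fell at 24 min. COX5B, OLE1 and HMG2 changed by -3.17, -2.24 and -2.02 at 24 min, while ANB1, AAC3 and SUT1 rose by 2.23, 1.22 and 1.60 (AAC3 not called without BY003, adjusted p = 0.091). ANB1, the hypoxic form of the translation factor eIF5A, has a close paralogue, HYP2, with a probe set of its own, and whether the ANB1 probe set also read HYP2 was not tested.

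MSN2 and MSN4 encode activators of the general stress response, under which CYC7 is known to be induced. MSN2 fell by 0.91 ± 0.18 at 7 min and fell by 1.04 ± 0.18 at 24 min. MSN4 had a change of -0.48 ± 0.36 at 7 min (adjusted p = 0.28) and fell by 2.73 ± 0.36 at 24 min. Of 12 other stress-induced genes 4 fell at 7 min (median -1.03; 1 without BY003 and 8 with the experiment as a block) and 12 fell at 24 min (median -3.56). Among all genes 35.7% fell at 7 min and 44.9% at 24 min. This list, too, was chosen with earlier results of these data known, so its counts are descriptions. SOL4 and GPH1 changed by -4.59 ± 0.40 and -4.28 ± 0.53 at 24 min (limma adjusted p = 1.1e-05 and 8.6e-05). MIG1, a glucose repressor, was at 0.57 ± 0.26 at 7 min (adjusted p = 0.093; called with the block and with array medians subtracted) and fell by 2.74 ± 0.26 at 24 min.

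**Figure D5:**
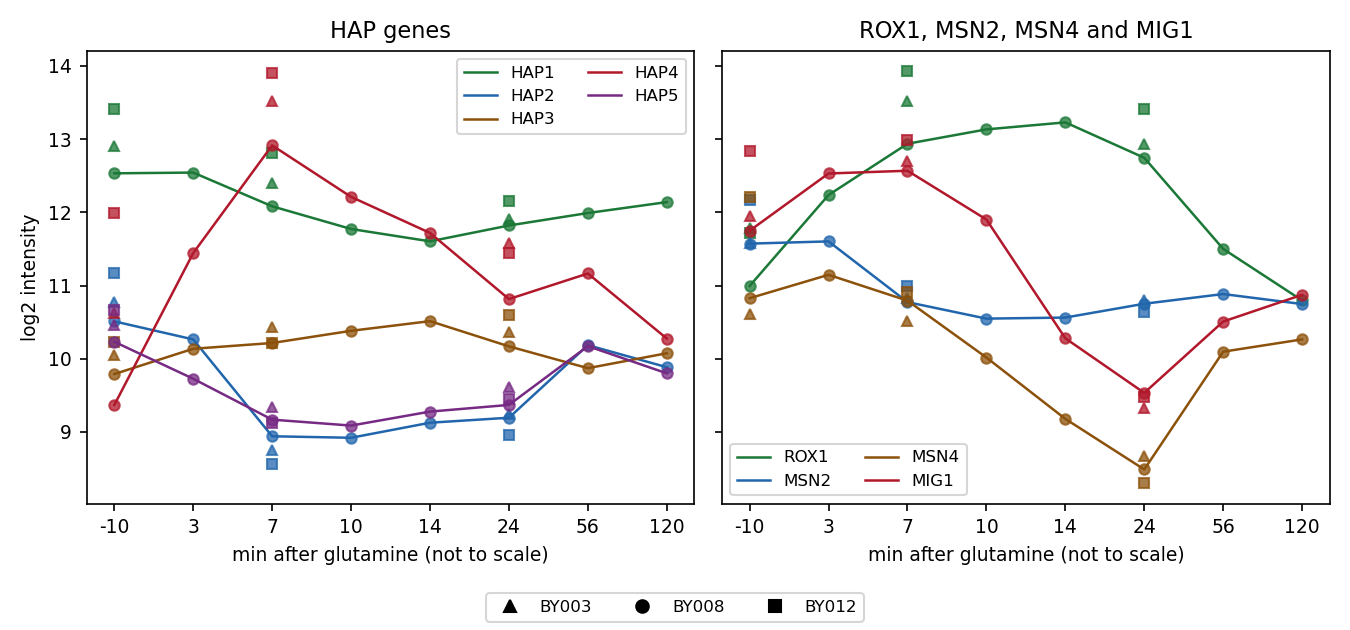
Log2 intensity of 9 regulator genes over time, with triangles for BY003, circles for BY008 (joined by lines) and squares for BY012, and the time axis not to scale. HAP4 was highest at 7 min in all 3 experiments (12.91 to 13.91), HAP2 and HAP5 were low from 7 to 24 min, ROX1 was high from 7 to 24 min, and MSN4 and MIG1 were lowest at 24 min.

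Across the 14 arrays the genes whose log2 values ran most like CYC7 were GIS1 (Pearson r = 0.995), DCS1 (0.991), EMP46 (0.990), ATG34 (0.989) and UGA2 (0.989). Those most like CYC1 were ISU2 (Pearson r = 0.979), RKM3 (0.977), SPE4 (0.975), YOL097W-A (0.974) and TAE1 (0.971). These are descriptions over arrays that share experiments and times, and the highest of 5449 genes were picked.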

How the data were processed

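The array values are linear intensities as deposited, 1 per probe set and array. Per the submitters' processing notes the authors used R 2.10.0, affy and RMA. The labels name no settings for these. Of 10928 probe sets 5498 were named for a yeast gene through the platform annotation, with 12 symbols updated through RefSeq gene records. The brightest probe set stood for each of 47 genes with more than 1, which left 5449 genes.

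The intensities were taken to log2 with no further scaling. limma 3.58.1 in R 4.3.3 fitted 1 mean per time to all 14 arrays with moderated errors, so times with 1 array entered the spread of no group. Adjusted p values are Benjamini-Hochberg over 5449 genes, and calls are at 0.05. The number of arrays limits the precision. In simulated data with 5449 genes for 24 against -10 min, the fit recovered 8 of 67 genes changed by 0.5 on the log2 scale. It recovered 46 of 67 changed by 1 and 58 of 66 changed by 2, with 8.2% false calls. No other gene was changed there, whereas 44.9% of genes fell and 24.1% rose in the real comparison. With few changed genes the Benjamini-Hochberg adjustment is stricter, so these rates do not give the recovery in the real data.

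The labels give each array of -10, 7 and 24 min an experiment code, which pairs the arrays. The deviations of arrays of 1 experiment from their group means correlated between -0.05 and 0.63, over 0.1 in 6 of 9 pairs of times. Nothing in the labels says more on how far the 3 experiments were separate cultures, so the spread between them may be partly technical. Ratios of 2 genes were tested by exact permutation of arrays.

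Named were all 35 members, for each list of related genes up to 2 called genes with the largest rise and 2 with the largest fall in a comparison, and fixed regulators. The other genes named were chosen after their values were seen. Members and lists were chosen with earlier results of these data known. Probe sets on the same array listed for genes of another organism were taken as a level of nonspecific signal, a choice made after seeing the data. Alternatives were array medians subtracted, quantile normalization, the experiment as a fixed or random block, a filter on dim genes, other probe set rules, fewer arrays and stricter thresholds. Promoter and protein sequences were not used here. Tables and figures were made with Python 3.11.15, numpy 2.4.6, pandas 2.3.3 and matplotlib 3.10.9.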

Additional observations from a re-analysis of the deposited data

Results flagged for a closer look

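In 8 of the 35 genes the change at 24 min differed from that at 7 min by the limma test of 24 against 7 min. Of these 7 were lower and 1 was higher, where 20.2% and 13.2% of all genes were, so neither share was above the background. The differences in log2 were -4.04 for CYC7, -2.20 for COX5B, -0.81 for NDI1, -0.74 for RIP1, -0.52 for CYT1, -0.47 for COX12, -0.45 for QCR2 and 0.80 for CYC1. In RIP1 and QCR2 the 7 min change, -0.28 and -0.12, had not passed the test, and the fall was called only at 24 min. CYC7 and COX5B were the 2 that held without each experiment in turn. At 24 min CYC7 lay just under the 95th percentile of probe sets listed for genes of another organism, so its difference may be bounded by nonspecific signal.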

How the results depend on the processing

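No called change of the 35 genes turned its sign under any alternative. At 7 min the 15 lower calls became 6 with array medians subtracted, 6 at an adjusted p under 0.01, 1 with a log2 change of at least 1 asked for as well, and 2 to 18 when 1 experiment or 1 array was left out. The 1 higher call became 2 with array medians subtracted, 2 with the experiment as a replicate block, 2 as a random block, 0 with a log2 change of at least 1, and 0 to 2 with arrays left out. At 24 min the 27 lower calls became 12 with array medians subtracted, 16 at 0.01, 7 with a log2 change of at least 1, and 12 to 29 with arrays left out, and the 1 higher call became 2 with array medians subtracted. Between 7 and 24 min the 7 lower calls became 4 with quantile normalization, 2 at 0.01, 2 with a log2 change of at least 1, and 2 to 9 with arrays left out, and the 1 higher call became 0 at 0.01, 0 with a log2 change of at least 1, and 0 to 1 with arrays left out. Leaving out an experiment also leaves fewer arrays to the fit. Among all 5449 genes, lower calls without BY003, BY008 and BY012 numbered 838, 1589 and 1440 at 7 min. They numbered 1862, 2287 and 2204 at 24 min, and 305, 867 and 948 between 7 and 24 min. Shares of all genes at the stricter thresholds and with single arrays left out are not given here. The counts of the 35 genes under those settings are therefore not set against a background. The replicate block lost no call. It gained those named in the report and ATP15 at 7 min, which gave 22, 29 and 9 lower calls. COX7 and ATP3 at 24 min were among those gained. Paired sign flips of the gene ratios gave an exact p of 0.25, the smallest that 3 experiments allow. Leaving out the 25% of genes with the lowest mean over all arrays removed CYC7 and NDE2 from the test. Signals near the nonspecific level limit the falls of CYC7 and, at 120 min, NDE2.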

Other observations

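In BY008, with 1 array per time, the regulators of the chain were followed beyond the replicated times. HAP4 read 11.44 at 3 min, 12.91 at 7 min, 12.21 at 10 min, 11.72 at 14 min, 11.16 at 56 min and 10.28 at 120 min, so it was highest at 7 min. The last array was above the 9.37 of the proline array of BY008 and below the 10.62 and 11.99 of BY003 and BY012, at -0.39 against the mean of the 3. ROX1 read 12.24 at 3 min, 13.13 at 10 min, 13.23 at 14 min, 11.50 at 56 min and 10.80 at 120 min, against 10.99 on proline in BY008. It was highest at 14 min, and at 120 min it stood at -0.70 against the mean of the 3 proline arrays. COX5B, a known target of Rox1, was lowest at 24 min, after the ROX1 peak, and ANB1, another, read 11.97 at 14 min and 11.85 at 24 min, against 8.80 on proline. These are values from 1 experiment with no test, and whether Rox1 acts on either gene here was not tested.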
